A study of Arabidopsis thaliana with 4 samples.

Results

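The plastid genome of Arabidopsis thaliana keeps a small set of genes for the machinery of photosynthesis. Here they were taken as the probe sets listed to 1 plastid gene whose symbol begins with psa, psb, pet, ndh or atp, or is rbcL. This rule used gene names and no measured value, and it found 43 probe sets, each for a different gene, among the 22810 rows of the array table. They are 43 of the 69 plastid genes, and of the 13350 genes in all, for which the annotation lists a probe set to that gene alone. By complex they are 15 for photosystem II, 5 for photosystem I, 6 for the cytochrome b6f complex, 10 for the NADH dehydrogenase-like complex (NDH), 6 for the ATP synthase and 1 for Rubisco. One further probe set was listed to both copies of ndhB and was left out by the rule.

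Total RNA came from 3 independent groups of plants that carried an inverted repeat made from the open reading frame of Myosin XI-K, an actin-based motor, so that RNA interference (RNAi) acts on it, and from 1 control group that constitutively expressed the reporter GUS as a transgene. Each group of plants has 1 deposited column, labelled as a mixture of rosette leaves, cauline leaves and flowers in equal parts. The sources used here name no promoter, plant age, accession or number of plants per group. The named probe sets hold none for Myosin XI-K, so the silencing was not checked.

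As deposited, GUS and RNAi group 1 had the same value in each of the 22810 rows, while other pairs of arrays had 56 to 67 rows in common. The 2 columns were counted as 1 sample, called the shared array, and the labels do not tell which plants it measured. RNAi groups 2 and 3 were set against it and against each other. If the shared array is the control, the first comparison parts silenced from control plants, and if it is RNAi group 1, it parts silenced groups from each other.

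In plastids, photosystem II takes electrons from water, the cytochrome b6f complex passes them on, and photosystem I lifts them to the level needed to make reducing power. The ATP synthase uses the proton gradient that results, NDH returns electrons from the stroma into the chain, and Rubisco fixes carbon dioxide. Each of these complexes combines subunits made in the plastid with subunits encoded in the nucleus. Plastid genes are largely transcribed in clusters by a bacterial-type RNA polymerase, whose promoter choice depends on nuclear-encoded sigma factors, and the long transcripts are then cut and trimmed. Most plastid messages lack a stable poly(A) tail, whereas the labelling protocol named in the labels starts from an oligo(dT) primer, so a plastid signal depends on how much of a message that primer captures as well as on its level.

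In RNAi group 3 every one of the 43 genes lay below the shared array, whereas in RNAi group 2 they were split. In RNAi group 3, 43 of 43 were lower, against 46.6% of the 15922 probe sets kept by a filter on dim signals, and 0 of 43 were higher, against 53.4%. The median log2 difference in that group was -0.50 for the 43 genes and 0.04 for all kept probe sets. In RNAi group 2, 20 of 43 were lower, against 46.5% of the kept probe sets, and 23 were higher, against 53.5%, with a median of 0.04 for the genes and 0.04 for all. Differences of at least 1.5-fold downward numbered 15 of 43 in RNAi group 3, against 11.5% of the kept probe sets, and 3 of 43 in RNAi group 2, against 12.5%. At least 1.5-fold upward were 0 of 43 in RNAi group 3, against 12.4%, and 2 of 43 in RNAi group 2, against 16%. At least 2-fold lower were 2 of 43 in RNAi group 3, against 3.95%, and 1 of 43 in RNAi group 2, against 3.76%. At least 2-fold higher were 0 of 43 in RNAi group 3, against 3.81%, and 0 of 43 in RNAi group 2, against 6.29%. Both comparisons use the same lone array.

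**Figure D1:**
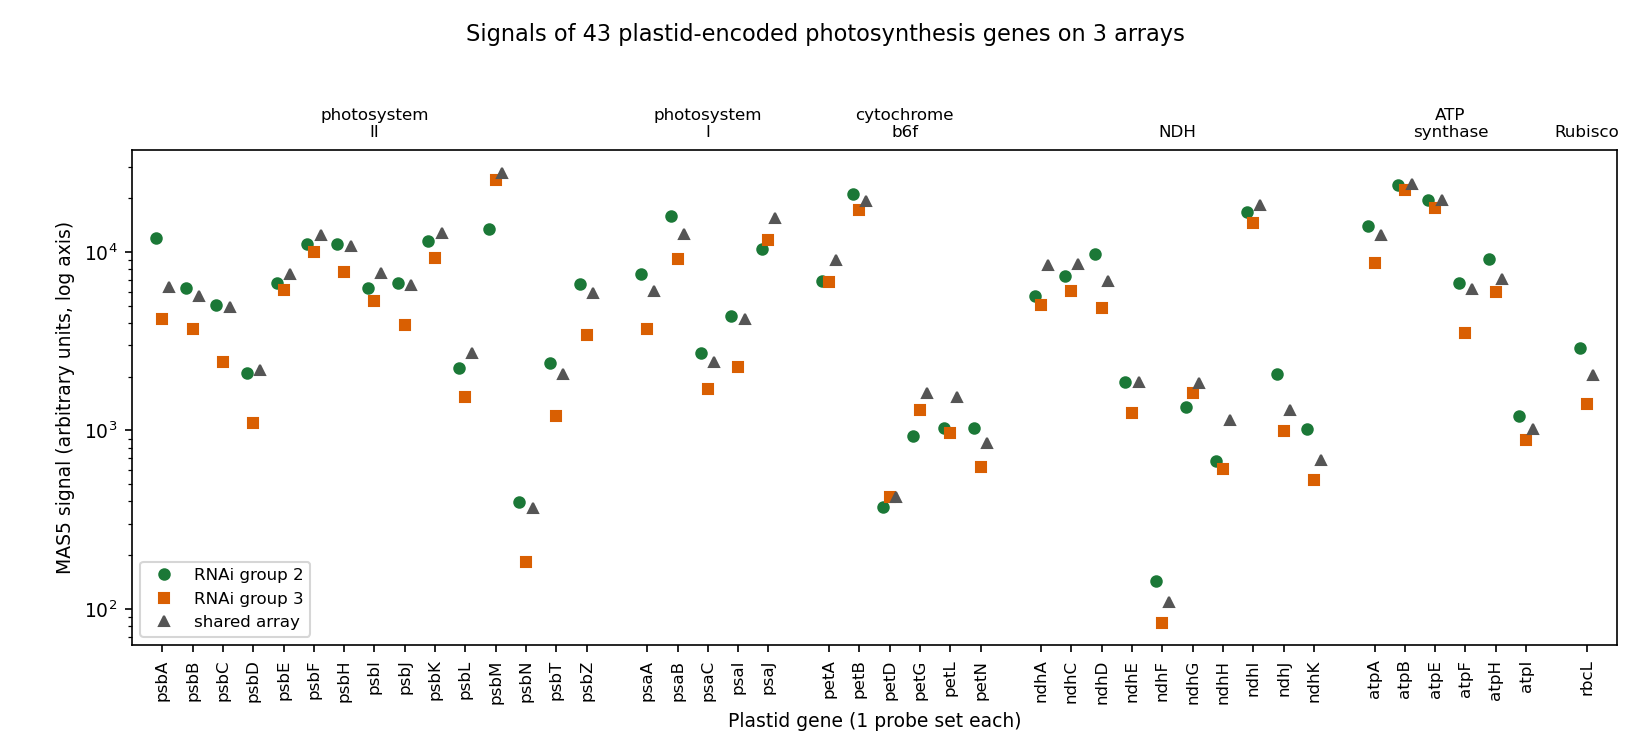
MAS5 signal (arbitrary units, log axis) of the 43 plastid-encoded photosynthesis genes, ordered by complex, with 1 point per array: RNAi group 2 (green circles), RNAi group 3 (orange squares) and the shared array (grey triangles). RNAi group 3 is the lowest of the 3 points for 38 of 43 genes and the highest for 0.

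The comparison of RNAi groups 2 and 3 with each other does not use the shared array. The signal was higher in RNAi group 2 for 38 of 43 genes, against 50.7% of the kept probe sets, and at least 1.5-fold higher for 21 of 43, against 20.5%. It was at least 2-fold higher for 7 of 43, against 9.54%. It was lower in RNAi group 2 for 5 of 43, against 49.3%, at least 1.5-fold lower for 1 of 43, against 18.9%, and at least 2-fold lower for 0 of 43, against 7.31%. The median log2 difference was 0.57 for the 43 genes and 0.01 for all kept probe sets. With 1 array in each group this comparison has no replicate check.

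RNAi groups 2 and 3 (n = 2) were then tested together against the shared array (n = 1), and no photosynthesis gene passed. All 43 genes passed the filter, and in limma 0 of 43 had an adjusted p under 0.05, against 0.0314% of the kept probe sets higher and 0.0% lower. At an unadjusted p under 0.05 there were also 0 of 43, against 0.923% higher and 0.301% lower. The smallest unadjusted p in limma was 0.135 (adjusted p = 0.9999), for ndhH. The standard errors of the 43 log2 differences lay between 0.48 and 0.67. They joined the spread between the 2 RNAi arrays (1 residual degree of freedom) with a spread drawn from all kept probe sets (7.45 prior degrees of freedom). The p-values rest on these standard errors, and neither part measures a spread of the shared array. The values that follow are therefore descriptions of 3 arrays. A signal measures 1 probe set across arrays, and its size against that of another probe set says nothing of the levels of the genes, so that a bright or a dim probe set is named only for its place in the range of the scanner.

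Other measures also differed between the arrays. The ratio of the 3′ to the 5′ control probe sets for actin was 16.8 in RNAi group 2 and 13.3 in RNAi group 3, against 5.38 on the shared array, while the ratios for GAPDH and ubiquitin lay closer together. For GAPDH it was 0.913 in RNAi group 2 and 0.786 in RNAi group 3, against 1.01 on the shared array, and for ubiquitin 1.96 in RNAi group 2 and 1.48 in RNAi group 3, against 1.74 on the shared array. The 25S rRNA control had a signal of 483.9 in RNAi group 2 and 328.6 in RNAi group 3, against 321.8 on the shared array. Among bright probe sets, the 776 with a mean log2 signal of at least 12, 64.8% were lower in RNAi group 2 than in RNAi group 3, and the median log2 difference was -0.22, of the opposite sign to the 24 photosynthesis genes among them (0.31). Of the leaf markers, 1 of 5 had a named probe set, RCA, which activates Rubisco, with 20964.3 in RNAi group 2 and 22392.2 in RNAi group 3, against 21684.4 on the shared array. These RCA signals were above 20000 on all 3 arrays, near the top of their range, so the check of the leaf part rests on 1 bright probe set. None of the 7 flower markers had a named probe set, so the flower part was not checked with organ identity genes. Of 5 pollen markers 3 were named, and their summed signal was 1252.6 in RNAi group 2 and 500.1 in RNAi group 3, against 35.9 on the shared array. Most of that sum came from AT3G07820 and AT5G07430, which were at 3.0 and 1.9 on the shared array. Both were listed because earlier results of these data were known, so their difference is no independent measure of pollen. ACT12 was dim on all 3 arrays and differed from the shared array by 0.58 in RNAi group 2 but -1.39 in RNAi group 3 (log2). The summed signal of the 2 tapetum markers was 766.8 in RNAi group 2 and 1253.4 in RNAi group 3, against 1173.4 on the shared array, and that of the 3 root markers was 51.4 in RNAi group 2 and 75.9 in RNAi group 3, against 46.7 on the shared array. The root markers were dim on all 3 arrays and did not go one way: on the log2 scale EXPA7 differed from the shared array by -2.69 in RNAi group 2 and -2.77 in RNAi group 3, PYK10 by 0.92 in RNAi group 2 and 1.05 in RNAi group 3, and EXPA18 by -0.76 in RNAi group 2 but 1.13 in RNAi group 3. None of the 3 seed markers had a named probe set. The part of these measures in the plastid values was not tested, and in RNA from mixed organs fewer green cells and less plastid RNA per cell cannot be told apart.

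Photosystem II had the lowest median in RNAi group 3. Its 15 genes had a median log2 difference from the shared array of 0.03 in RNAi group 2 (8 higher, 7 lower) and -0.61 in RNAi group 3 (0 higher, 15 lower, 9 of them by at least 1.5-fold). The reaction centre gene psbA, which encodes D1, the subunit that is damaged by light and constantly replaced, had a signal of 11996.7 in RNAi group 2 and 4197.6 in RNAi group 3, against 6366.1 on the shared array. The shared array thus lay between the RNAi arrays, which stood 2.86-fold apart, and psbA had the highest log2 difference between RNAi groups 2 and 3 of all 43 genes (1.52), at percentile 96.0 of the kept probe sets.

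The partner of D1, the D2 protein, is encoded by psbD, with 2098.6 in RNAi group 2 and 1106.6 in RNAi group 3, against 2190.1 on the shared array. The inner antenna protein encoded by psbC had 5040.0 in RNAi group 2 and 2403.5 in RNAi group 3, against 4893.9 on the shared array. For both genes RNAi group 2 lay near the shared array, with log2 differences of -0.06 for psbD and 0.04 for psbC, and RNAi group 3 lay below it, at -0.98 for psbD and -1.03 for psbC. The other inner antenna gene, psbB, had 6270.4 in RNAi group 2 and 3713.4 in RNAi group 3, against 5677.7 on the shared array, a log2 difference of 0.14 in RNAi group 2 and -0.61 in RNAi group 3.

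The cytochrome b559 genes stood closer together. The alpha subunit gene psbE had 6704.1 in RNAi group 2 and 6092.7 in RNAi group 3, against 7490.1 on the shared array. The beta subunit gene psbF had 11069.6 in RNAi group 2 and 10046.0 in RNAi group 3, against 12356.1 on the shared array. Both were highest on the shared array, and their log2 differences matched to 2 decimals in each RNAi group (-0.16 in RNAi group 2 and -0.30 in RNAi group 3).

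The small membrane subunits did not share one order of arrays. psbM, which encodes a small subunit at the interface of the photosystem II dimer, had 13431.4 in RNAi group 2 and 25261.7 in RNAi group 3, against 27842.0 on the shared array. It is the exception among the 15 genes: RNAi group 2 was the lowest array, with a log2 difference of -1.05, and RNAi group 3 lay near the shared array, at -0.14. Its signals on the other 2 arrays were among the 40 and 33 probe sets that reached 20000. psbN had 397.4 in RNAi group 2 and 183.4 in RNAi group 3, against 369.8 on the shared array, log2 differences of 0.10 in RNAi group 2 and -1.01 in RNAi group 3. Its product is needed to assemble photosystem II in tobacco, and the gene lies on the strand opposite to its neighbours psbT and psbH, so that how far its probe set reads antisense RNA from them cannot be told from the table.

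psbT had 2377.4 in RNAi group 2 and 1199.8 in RNAi group 3, against 2058.9 on the shared array. psbZ had 6587.4 in RNAi group 2 and 3424.5 in RNAi group 3, against 5894.0 on the shared array. In both small subunit genes RNAi group 2 was the highest array and RNAi group 3 the lowest, by 1.98-fold and 1.92-fold. psbL had 2246.3 in RNAi group 2 and 1532.1 in RNAi group 3, against 2709.7 on the shared array. psbI had 6265.8 in RNAi group 2 and 5312.8 in RNAi group 3, against 7619.3 on the shared array. Both small subunit genes were highest on the shared array, and differed from it by -0.27 and -0.28 (log2) in RNAi group 2 and -0.82 and -0.52 in RNAi group 3. The remaining genes psbH, psbJ and psbK, like psbB, lay between -0.15 and 0.14 in RNAi group 2 and between -0.73 and -0.46 in RNAi group 3.

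**Figure D2:**
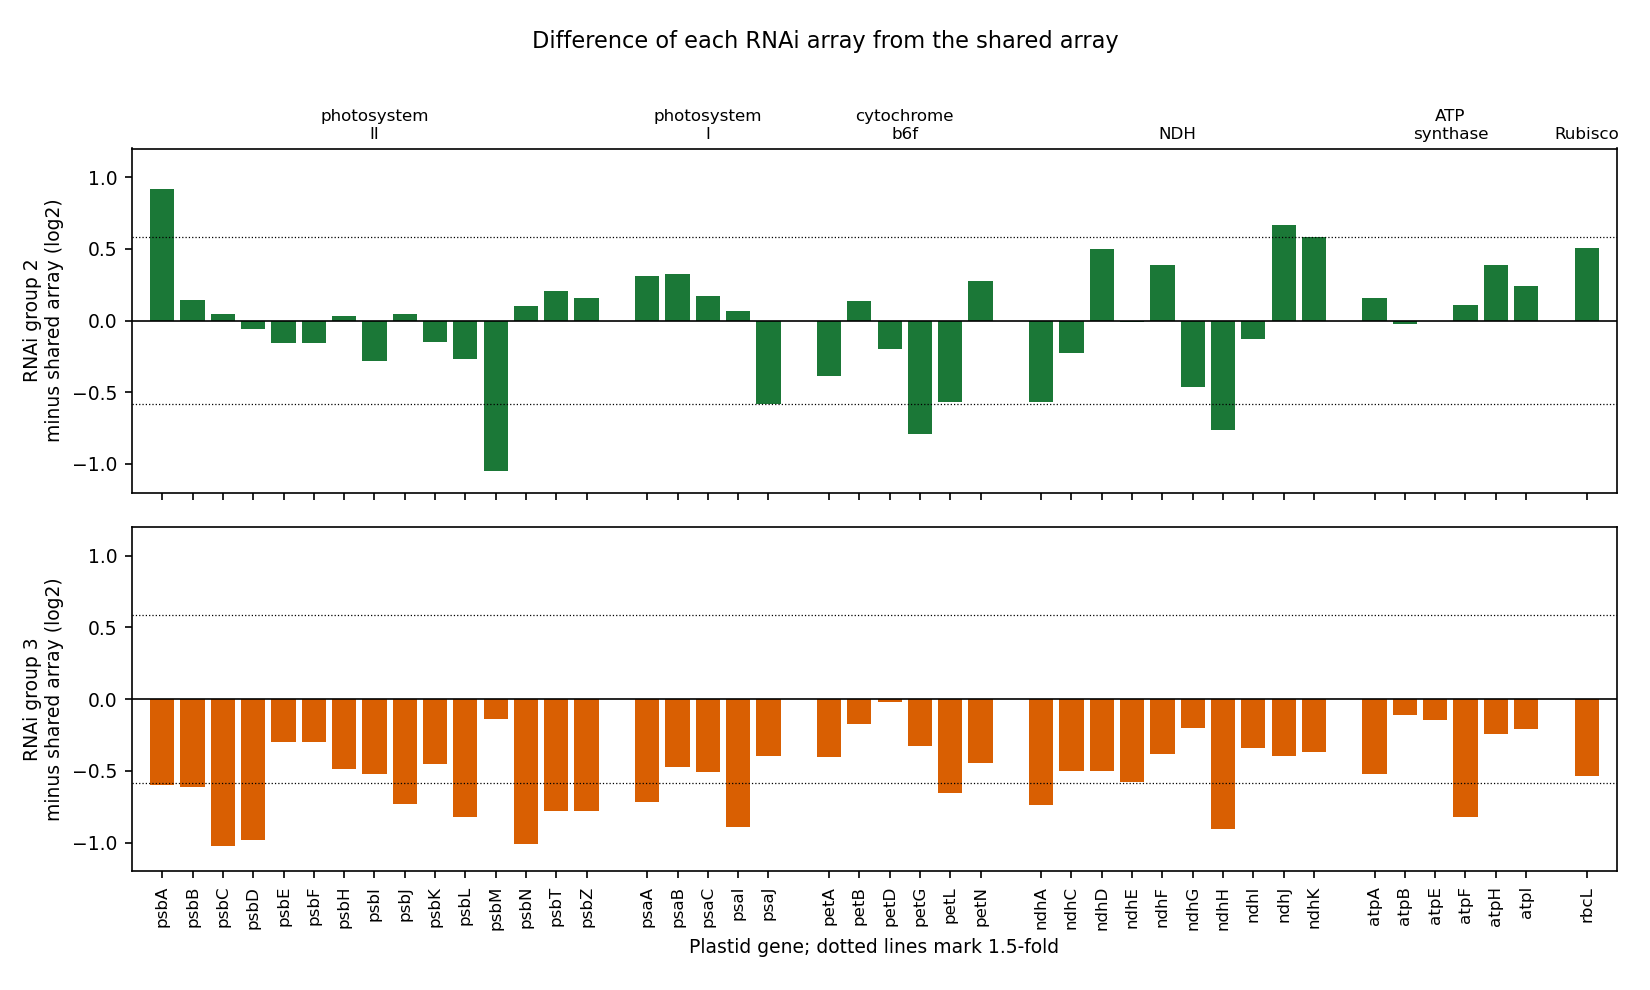
Log2 difference of each RNAi array from the shared array for the 43 genes, ordered by complex, with RNAi group 2 above (green bars) and RNAi group 3 below (orange bars); dotted lines mark 1.5-fold. The bars of RNAi group 3 all point down, between -0.02 for petD and -1.03 for psbC, and those of RNAi group 2 run from -1.05 for psbM to 0.91 for psbA.

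In photosystem I, 4 of the 5 genes were highest in RNAi group 2 and lowest in RNAi group 3. The median log2 difference from the shared array was 0.17 in RNAi group 2 and -0.51 in RNAi group 3. psaA, which encodes one of the large reaction centre subunits, had 7523.0 in RNAi group 2 and 3687.6 in RNAi group 3, against 6061.3 on the shared array. Its partner psaB had 15792.1 in RNAi group 2 and 9077.6 in RNAi group 3, against 12588.1 on the shared array. In both genes the shared array lay between the RNAi arrays, which were 2.04-fold and 1.74-fold apart.

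psaC, which encodes the iron-sulphur subunit that hands electrons to ferredoxin, had 2717.4 in RNAi group 2 and 1703.4 in RNAi group 3, against 2418.7 on the shared array. psaI, for a small membrane subunit, had 4398.9 in RNAi group 2 and 2254.0 in RNAi group 3, against 4191.1 on the shared array. Both were highest in RNAi group 2 and lowest in RNAi group 3. psaJ, for another small membrane subunit, had 10314.7 in RNAi group 2 and 11687.7 in RNAi group 3, against 15403.6 on the shared array. It differed from the other 4 genes in that RNAi group 2 was its lowest array (log2 differences -0.58 in RNAi group 2 and -0.40 in RNAi group 3).

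The cytochrome b6f genes went both ways between the RNAi arrays. Their log2 difference between RNAi groups 2 and 3 ran from -0.47 for petG to 0.72 for petN, with a median of 0.05 (4 higher, 2 lower in RNAi group 2), and their median difference from the shared array was -0.29 in RNAi group 2 and -0.36 in RNAi group 3. petA, the gene for cytochrome f, had 6866.4 in RNAi group 2 and 6803.4 in RNAi group 3, against 8979.2 on the shared array. petB, for cytochrome b6, had 21202.0 in RNAi group 2 and 17140.7 in RNAi group 3, against 19291.0 on the shared array, and petD, for subunit IV, had 372.0 in RNAi group 2 and 421.2 in RNAi group 3, against 426.2 on the shared array. Of these 3, only petA stood apart from the shared array by as much as 0.39 on the log2 scale in both RNAi groups (-0.39 in RNAi group 2 and -0.40 in RNAi group 3).

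The small subunit genes petG and petL, both needed in tobacco to build or stabilise the complex, were highest on the shared array. petG had 936.1 in RNAi group 2 and 1295.1 in RNAi group 3, against 1622.8 on the shared array, and petL had 1035.0 in RNAi group 2 and 972.7 in RNAi group 3, against 1532.9 on the shared array. The log2 differences of petG were -0.79 in RNAi group 2 and -0.33 in RNAi group 3, and those of petL -0.57 in RNAi group 2 and -0.66 in RNAi group 3. petN, for another small subunit, had 1029.2 in RNAi group 2 and 624.9 in RNAi group 3, against 850.1 on the shared array, and was the 1 gene of the complex at least 1.5-fold higher in RNAi group 2 than in RNAi group 3.

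The NDH genes spread widely in RNAi group 2. Their log2 differences from the shared array ran from -0.76 to 0.67 in RNAi group 2, with a median of -0.07 (4 higher, 6 lower), and from -0.91 to -0.20 in RNAi group 3, with a median of -0.45 (0 higher, 10 lower). Among subunits of the arm that faces the stroma, ndhH had 675.2 in RNAi group 2 and 610.6 in RNAi group 3, against 1143.8 on the shared array. This was the lowest mean log2 difference of all 43 genes (-0.83, SE 0.50; limma adjusted p = 0.9999), and both RNAi arrays lay below the shared array. ndhJ had 2081.0 in RNAi group 2 and 993.2 in RNAi group 3, against 1310.0 on the shared array, and ndhK had 1021.4 in RNAi group 2 and 529.2 in RNAi group 3, against 682.0 on the shared array. For both genes the shared array lay between the RNAi arrays, which were 2.10-fold and 1.93-fold apart. ndhI had 16765.4 in RNAi group 2 and 14462.7 in RNAi group 3, against 18351.3 on the shared array, so that all 3 arrays lay within 0.34 on the log2 scale.

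Among membrane subunits of NDH, ndhA had 5677.8 in RNAi group 2 and 5045.9 in RNAi group 3, against 8402.1 on the shared array, with both RNAi arrays lower (log2 differences -0.57 in RNAi group 2 and -0.74 in RNAi group 3). ndhD had 9703.2 in RNAi group 2 and 4836.8 in RNAi group 3, against 6859.5 on the shared array, so that the shared array lay between RNAi arrays 2.01-fold apart. ndhG had 1347.8 in RNAi group 2 and 1615.7 in RNAi group 3, against 1854.9 on the shared array, and was the 1 NDH gene lowest in RNAi group 2. ndhE had 1861.2 in RNAi group 2 and 1256.4 in RNAi group 3, against 1872.4 on the shared array, so that RNAi group 2 lay at the shared array (-0.01) and RNAi group 3 below it (-0.58). ndhF was the dimmest probe set of the 43, with 143.7 in RNAi group 2 and 84.0 in RNAi group 3, against 109.6 on the shared array. ndhC lay at -0.22 in RNAi group 2 and -0.50 in RNAi group 3.

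The ATP synthase genes showed 2 patterns. atpB, for the catalytic beta subunit, had 23567.1 in RNAi group 2 and 22097.4 in RNAi group 3, against 23914.7 on the shared array. atpE, for the epsilon subunit, had 19408.4 in RNAi group 2 and 17652.7 in RNAi group 3, against 19483.0 on the shared array. In both genes the 3 arrays lay within 0.14 on the log2 scale, at signals near the top of the range of these arrays, whose highest signals were 35199.6 in RNAi group 2 and 30140.6 in RNAi group 3, against 28999.7 on the shared array.

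The other 4 ATP synthase genes were highest in RNAi group 2 and lowest in RNAi group 3. atpA, for the alpha subunit, had 13921.2 in RNAi group 2 and 8679.9 in RNAi group 3, against 12479.9 on the shared array. atpF, for subunit b of the stalk, had 6718.5 in RNAi group 2 and 3518.3 in RNAi group 3, against 6226.3 on the shared array. atpF had the widest gap between RNAi groups 2 and 3 in the complex, 1.91-fold. atpH, for the subunit of the rotating ring, had 9167.0 in RNAi group 2 and 5935.8 in RNAi group 3, against 7010.4 on the shared array, and atpI, for subunit a beside the ring, had 1209.2 in RNAi group 2 and 884.3 in RNAi group 3, against 1021.4 on the shared array. In RNAi group 2 these 4 genes lay between 0.11 and 0.39 above the shared array, and in RNAi group 3 between -0.82 and -0.21.

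Rubisco has 1 plastid gene, rbcL, for the large subunit that carries the active site. It had 2904.7 in RNAi group 2 and 1409.4 in RNAi group 3, against 2044.6 on the shared array. The RNAi arrays were 2.06-fold apart with the shared array between them, so that the mean of both RNAi groups was close to it (log2 difference -0.02, SE 0.59; limma adjusted p = 0.9999).

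**Figure D3:**
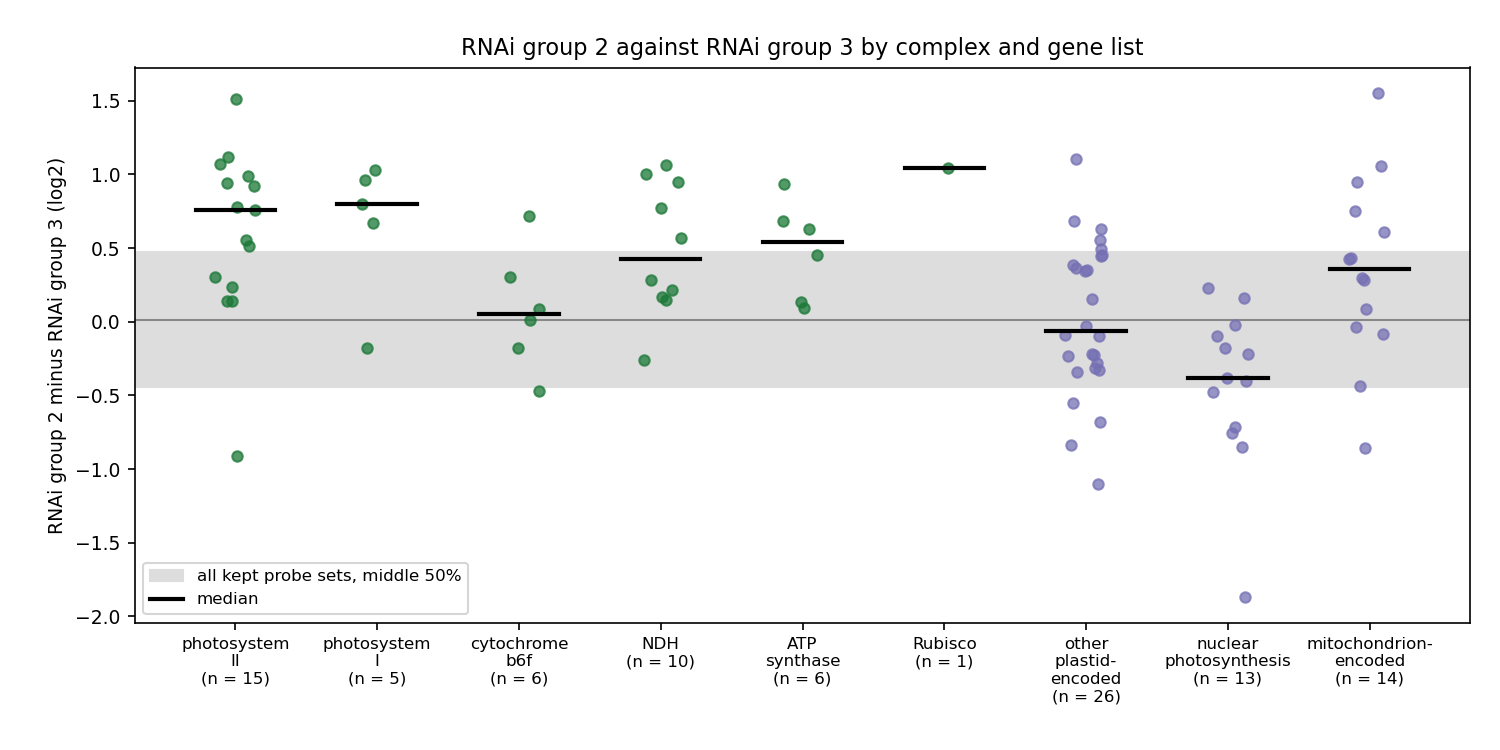
Log2 difference between RNAi groups 2 and 3 for each kept probe set (points) of the 6 complexes (green) and of 3 other gene lists (violet). Black bars give the median of each list. Some points of the mitochondrion-encoded list are probe sets of the same gene. The grey band holds the middle 50% of all kept probe sets and the grey line their median. The medians are 0.76 for photosystem II, 0.80 for photosystem I, 0.05 for cytochrome b6f, 0.42 for NDH and 0.54 for the ATP synthase.

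Genes that are transcribed together were then set side by side. Pairs of genes compared here, which may be parts of longer clusters, were psaA and psaB, psbD and psbC, and atpB and atpE. The log2 difference between RNAi groups 2 and 3 was 1.03 and 0.80 in the first pair, 0.92 and 1.07 in the second, and 0.09 and 0.14 in the third. In the atpI, atpH, atpF and atpA cluster it ran from 0.45 to 0.93. In the petL, petG and psaJ cluster, which holds genes of both cytochrome b6f and photosystem I, it ran from -0.47 to 0.09, and all 3 genes lay between -0.79 and -0.57 in RNAi group 2 against the shared array. psaJ, the exception within photosystem I, thus lay with its neighbours.

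Longer clusters held both close and distant values. In the cluster that starts with psbB, the log2 difference between RNAi groups 2 and 3 was 0.76 for psbB, 0.99 for psbT, 0.52 for psbH, 0.31 for petB and -0.18 for petD, in the order of transcription. In the cluster that starts with ndhH it was 0.15 for ndhH, 0.17 for ndhA, 0.21 for ndhI, -0.26 for ndhG, 0.57 for ndhE, 0.67 for psaC and 1.00 for ndhD. The values thus differed by 1.17 within the first cluster and by 1.27 within the second. In the psbE, psbF, psbL and psbJ cluster the values were 0.14, 0.14, 0.55 and 0.78, and in the ndhC, ndhK and ndhJ cluster 0.28, 0.95 and 1.07.

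Neighbouring plastid genes had related values in the comparisons that use RNAi group 2, and hardly so in RNAi group 3 against the shared array. With the 69 measured plastid genes put in the order of the TAIR10.1 reference table, the log2 difference between RNAi groups 2 and 3 of a gene correlated with that of the next gene, with Pearson's r = 0.49 and Spearman's rho = 0.51 over 68 pairs of neighbours. For RNAi group 2 against the shared array these were 0.58 and 0.55, and for RNAi group 3 against the shared array 0.11 and 0.03. The points share the same arrays, and neighbouring genes share transcripts, so no p is given. Across the 43 genes, Spearman's rho of the length of the gene in the reference table was 0.35 with the difference of RNAi group 2 from the shared array, 0.01 with that of RNAi group 3, and 0.23 with the difference between RNAi groups 2 and 3. For the mean log2 signal, which is made from the same arrays, rho was -0.15, 0.31 and -0.28 with the same 3 differences.

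**Figure D4:**
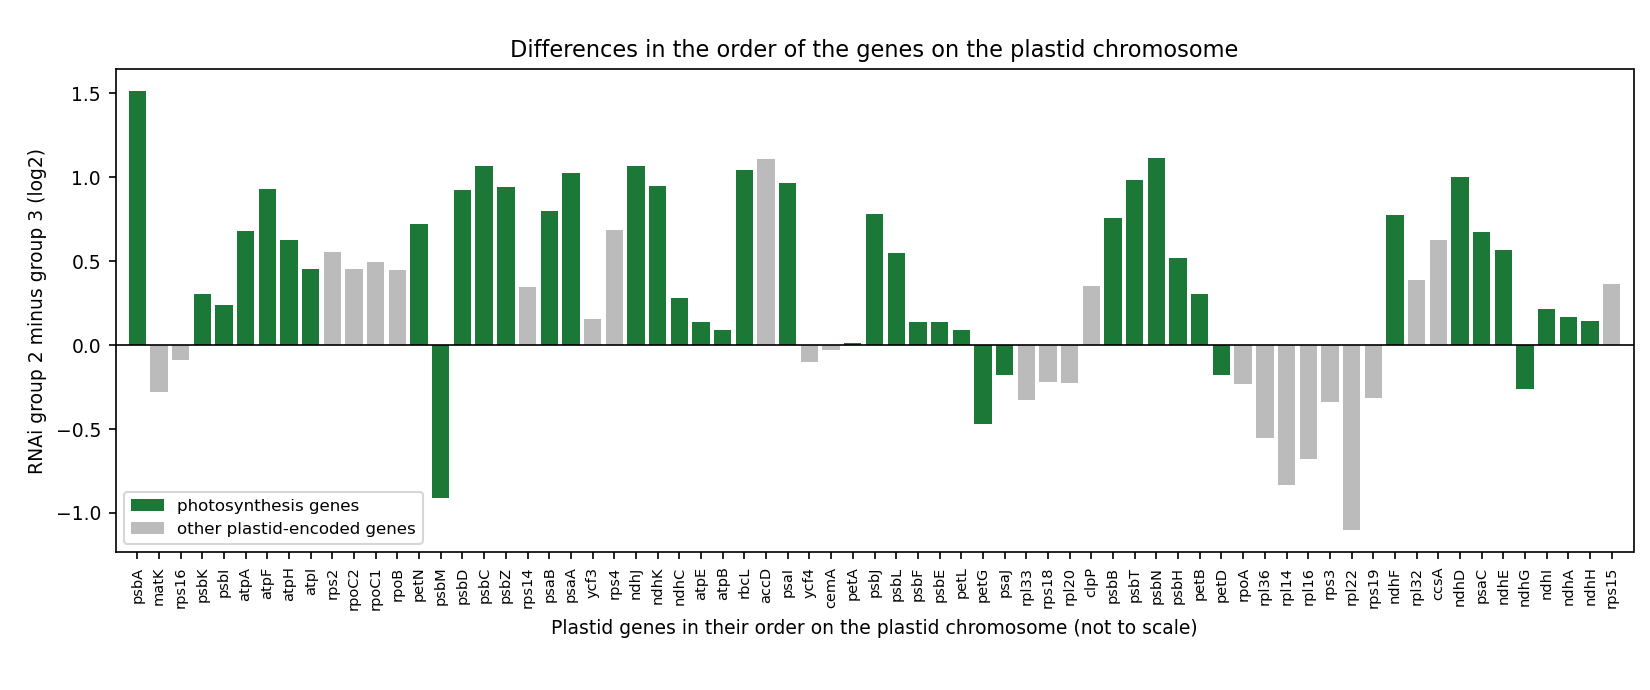
Log2 difference between RNAi groups 2 and 3 for the 69 measured plastid genes in their order on the plastid chromosome (not to scale), with photosynthesis genes in green and other plastid genes in grey. Runs of neighbours share a sign, such as the low run from petD to rps19 that holds ribosomal protein genes, while psbM (-0.91) stands below its neighbours petN (0.72) and psbD (0.92).

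The other 26 plastid-encoded genes, most of them for ribosomal proteins and the plastid RNA polymerase, were the nearest comparison. Against the shared array their median log2 difference was -0.40 in RNAi group 2, with 17 of 26 lower, against 46.5% of the kept probe sets. In RNAi group 3 it was -0.41, with 25 of 26 lower, against 46.6%. Signals below the shared array in RNAi group 3 were thus not particular to the photosynthesis genes. Between RNAi groups 2 and 3 the median of the 26 genes was -0.06. In RNAi group 2, 3 of 26 were at least 1.5-fold higher and 3 of 26 at least 1.5-fold lower. Of the photosynthesis genes 21 of 43 were that much higher and 1 of 43 lower, and of all kept probe sets 20.5% and 18.9%. The genes with the largest absolute mean difference were rpl16, with 1217.0 in RNAi group 2 and 1948.2 in RNAi group 3 against 2949.7 on the shared array, and rpl36, with 3618.8 in RNAi group 2 and 5310.6 in RNAi group 3 against 8019.7 on the shared array, both for ribosomal proteins. The lists were not tested against each other.

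Most of the measured nuclear photosynthesis genes had the opposite order of RNAi arrays. The list holds subunits and antennae of these complexes, the assembly factor PSB27 and the Rubisco activase RCA. Of these 13 genes, 11 were lower in RNAi group 2 than in RNAi group 3, against 49.3% of all kept probe sets. Most of the 13 are bright, and of the bright probe sets 64.8% were lower, with a median log2 difference of -0.22. The median of the 13 genes was -0.38, where the plastid photosynthesis genes had 0.57. NdhS (0.23) and PSBW (0.16) were the 2 that were higher in RNAi group 2. Against the shared array 13 of 13 were lower in RNAi group 2 (median -0.49), against 46.5% of all kept and 67.8% of bright probe sets. In RNAi group 3, 10 of 13 were lower (median -0.10), against 46.6% of all kept and 49.9% of bright probe sets. NdhL, an NDH subunit, had 1413.7 in RNAi group 2 and 1602.3 in RNAi group 3, against 2735.3 on the shared array. LHCB4.3, a minor antenna protein of photosystem II, had 1017.7 in RNAi group 2 and 3721.7 in RNAi group 3, against 3452.7 on the shared array. These had the largest absolute mean difference of their list, and 0 of 13 passed in limma.

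Of the nuclear-encoded factors for plastid transcription and RNA, 6 had a named probe set, none of them a sigma factor, and 0 of 6 passed in limma. The list takes HCF and CRR genes by symbol, and it therefore also holds factors that act on proteins. Its median log2 difference from the shared array was 0.09 over both RNAi groups, with 4 of 6 higher and 2 lower. The 2 lower ones had the largest absolute mean differences. They were HCF101, a factor for iron-sulphur clusters of photosystem I, with 1170.0 in RNAi group 2 and 1535.7 in RNAi group 3 against 1854.3 on the shared array, and CRR41, named for chlororespiratory reduction, with 194.3 in RNAi group 2 and 296.0 in RNAi group 3 against 316.9 on the shared array. The mitochondrion-encoded genes, the other organelle set, had 14 kept probe sets, of which several were of nad1 or nad5. None of these probe sets had a signal above 709.3 on any array. Their median log2 difference from the shared array was 0.66 in RNAi group 2 and 0.45 in RNAi group 3. All kept probe sets had 0.04 in RNAi group 2 and 0.04 in RNAi group 3. The plastid photosynthesis genes had 0.04 in RNAi group 2 and -0.50 in RNAi group 3.

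The lower signals in RNAi group 3 did not depend on the scaling tried, while the split in RNAi group 2 moved with it. All 43 genes lay below the shared array in RNAi group 3 as deposited, with quantile normalisation and with median centring. In RNAi group 2, 23 were higher and 20 lower as deposited, 25 higher, 17 lower and 1 neither with quantile normalisation, and 17 higher and 26 lower with median centring. The median of all kept probe sets in RNAi group 2 was -0.08 with median centring, against 0.04 as deposited. The genes higher in RNAi group 2 than in RNAi group 3 numbered 38 as deposited, 39 with quantile normalisation and 36 with median centring.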

How the data were processed

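The authors deposited 1 table of probe set intensity values on a linear scale from 1-colour Affymetrix arrays, produced by GCOS and MAS5 according to the submitters' processing notes, which give no versions. The 2% trimmed means were 500.05 to 500.06, so the arrays were not scaled again. Detection calls were not used, and the number of arrays limits the precision. Genes were named through the platform annotation, updated through gene identifiers of TAIR10.1 (mitochondrial genes by symbol); 13436 of 13513 probe sets with 1 gene matched. The 64 control probe sets were left out. Signals were put on the log2 scale, and the 15922 probe sets with a mean above the 30th percentile (5.31) were kept. RNAi groups 2 and 3 were set against the shared array with limma 3.58.1 in R 4.3.3 (lmFit, eBayes with an intensity trend, 2-sided, Benjamini-Hochberg over all kept probe sets, threshold 0.05; 1 residual and 7.45 prior degrees of freedom). This takes the spread of the shared array to be that of the RNAi arrays. The procedure was tested on simulated data. Whether it can call differences as small as those of the photosynthesis genes was not tested, so the lack of calls among them does not show that they were unchanged.

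Single arrays were compared by sign and by 1.5-fold and 2-fold. All members were named, with values on each array for complexes of up to 7 genes and, in larger ones, for the highest and lowest 3 of each comparison with the shared array, the 2 furthest apart between RNAi groups 2 and 3, the dimmest and the brightest; psbB was added after its values were seen. From the other lists the 2 largest differences were taken. The members, lists, transcription clusters and tests were chosen with earlier results of these data known. The pollen markers AT3G07820 and AT5G07430 were taken from those results.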

Additional observations from a re-analysis of the deposited data

How the results depend on the processing

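With only 3 distinct arrays, no setting gave a call for any of the 43 genes: over the main setting and 9 alternatives their limma adjusted p ranged from 0.9999 to 1. Of 386 gene values under those alternatives, 6 took the other sign, all close to 0: ndhD (0.0735), ndhF (-0.096) and rbcL (0.0219) with quantile normalisation, and ndhF (-0.0736), atpI (-0.0593) and atpH (-0.0036) with median centring. Over all probe sets the 5 higher calls became 0 with quantile normalisation, with signals under 32 set to 32, with an offset of 16, without a filter and with all 4 columns as labelled, and 13 without the intensity trend; the cause was not tested. A fit of 4 columns holds the shared array in both groups. Medians of both RNAi groups against the shared array depended on which RNAi group entered: leaving out RNAi groups 2 and 3 in turn gave -0.50 to 0.04 for all 43 genes, -0.61 to 0.03 for photosystem II, -0.51 to 0.17 for photosystem I, -0.45 to -0.07 for NDH, -0.22 to 0.13 for the ATP synthase and -0.54 to 0.51 for Rubisco, so that the sign turned in all of these but NDH. Under the other settings each median moved by less than the SD of the RNAi group 2 and RNAi group 3 medians, which is wide where those groups part, except in cytochrome b6f, where that SD was 0.05. There the median of both RNAi groups against the shared array was -0.33 with median centring and -0.17 with all 4 columns, and -0.36 to -0.29 when RNAi groups were left out in turn; RNAi group 2 against the shared array was -0.41 with median centring; and RNAi group 2 against RNAi group 3 was 0.13 with quantile normalisation and -0.0402 with median centring. Leaving out RNAi group 2 or 3 leaves no residual degrees of freedom, so no test was run. No paired analysis was possible. The only GUS column equals that of RNAi group 1, and RNAi groups 2 and 3 have no control of their own.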
